A study of Mus musculus with 2 samples.

Results

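Fibroblasts of the postnatal mouse right ventricle whose leading genes were Smoc2 and Col15a1 were taken from a droplet RNA table by a fixed count rule. A barcode counted as a fibroblast when it had at least 500 UMIs (unique molecular identifiers, each standing for 1 captured RNA molecule), fewer than 2% of them from the cardiomyocyte genes Ttn and Ryr2, at least 3 from Pdgfra, Dcn, Col1a2 and Abca8a together, and 0 from the mesothelial genes Msln and Upk3b. Each fibroblast then received 3 scores, each the summed UMIs of 5 genes: Smoc2, Kcnk2, Col15a1, Hs3st3a1 and Mme for the members, Pi16, Cd248, Gfpt2, Adgrd1 and Has2 for A-type cells, and Thsd7b, Vit, Fbn2, Kcnb2 and Ccbe1 for C-type cells. A cell belonged to a class when that class's score was at least 2 UMIs and larger than both others. The members were 1969 of 5265 fibroblasts (490 of 1524 in library 1 and 1479 of 3741 in library 2) among 22183 barcodes. A-type cells numbered 598, C-type cells 987, and 1711 fibroblasts met no class rule and are called unassigned. The working name of the population calls these cells interstitial, which is a place in the tissue that dissociated droplets do not record.

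Both libraries came from the right ventricle of C57/BL6J mouse pups that were homozygous for floxed CBP (the gene Crebbp), floxed p300 (the gene Ep300) and a floxed Trap allele, about which the labels say no more. AAV9 had been injected on postnatal day 1 to knock out p300 and CBP, 2 related lysine acetyltransferases, and tissue was collected on postnatal day 21. The libraries have the same labels, which makes them 1 group of 2 samples without a control group, and nothing here compares knockout with control. Which cells the virus reached, and which promoter drove its cargo, is not given in the sources read for this work. Per the labels' protocols the frozen tissue was digested with collagenase and passed over CD45 beads before loading. How many animals went into each library is not stated. P-values therefore measure only how a difference between classes varies between these libraries, a spread that may be technical.

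Cardiac fibroblasts lie between the muscle fibres and around vessels, where they make and remodel the collagen network and the basement membranes that touch myocytes and capillaries. Smoc2 encodes a secreted calcium-binding matricellular protein. Col15a1 encodes a collagen of the basement membrane zone that links it to the surrounding fibrils. Kcnk2 encodes a mechanically gated background potassium channel, Hs3st3a1 a sulfotransferase that edits heparan sulfate, and Mme the cell-surface peptidase neprilysin, which cleaves natriuretic and other small peptides. A-type genes such as Pi16 and Cd248 are known from fibroblasts of the vessel adventitia. In GENCODE M21 (GRCm38) Smoc2 (ENSMUSG00000023886) lies on chromosome 17 from 14279506 to 14404790 and Col15a1 (ENSMUSG00000028339) on chromosome 4 from 47208161 to 47313167, both on the plus strand.

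Members had a median of 2136 UMIs in library 1 and 3403 in library 2, close to the other fibroblasts (1986 and 3222). Throughout, paired values are given for library 1 and then library 2. Levels are CPM, the summed UMIs of a gene in a class scaled to 1e6 UMIs of that class, over totals of 1289949 and 5959274 UMIs for the members and 2561566 and 8627688 for the other fibroblasts. Library 1 had the smaller sums in both classes, although it had more barcodes and more UMIs in all. Its members carried more mitochondrial RNA (1.33% of member UMIs against 0.461% in library 2) and more cells marked by a doublet score (32.9% and 16.2% of members). Of 17 barcodes found in both libraries 2 were fibroblasts in both, and 0 were members in both. All 10 fibroblast marker genes had counts in the members, with summed levels of 14639 and 18253 CPM against 12047 and 10416 CPM in the other fibroblasts. The 10 include Pdgfra, Dcn, Col1a2 and Abca8a, which admitted every fibroblast, so their counts follow from the rule and are no result. Cardiomyocyte marker RNA was present in both classes and higher in library 1, at 15563 and 3525 CPM in members and 17612 and 3859 CPM in the other fibroblasts. That sum includes Ttn and Ryr2, which the rule capped in every cell.

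The members were chosen by the summed UMIs of 5 genes, which are described here without a test. Col15a1 stood at 825 CPM (95% Poisson interval 776 to 876) and 1231 CPM (1203 to 1259) in the members, against 233 and 257 CPM in the other fibroblasts. Smoc2 stood at 619 CPM (577 to 664) and 652 CPM (632 to 673), against 196 and 186 CPM. These intervals cover counting error only. Both genes were thus above the other fibroblasts in each library, and Col15a1 was higher in library 2 while Smoc2 was alike in both. Kcnk2 was at 105 and 132 CPM against 23.0 and 24.9, Mme at 112 and 130.2 CPM against 38.6 and 37.7, and Hs3st3a1 at 75.2 and 185 CPM against 17.2 and 35.8. Each was above the other fibroblasts in each library, and Hs3st3a1 was clearly lower in library 1 than in library 2 in both classes.

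**Figure D1:**
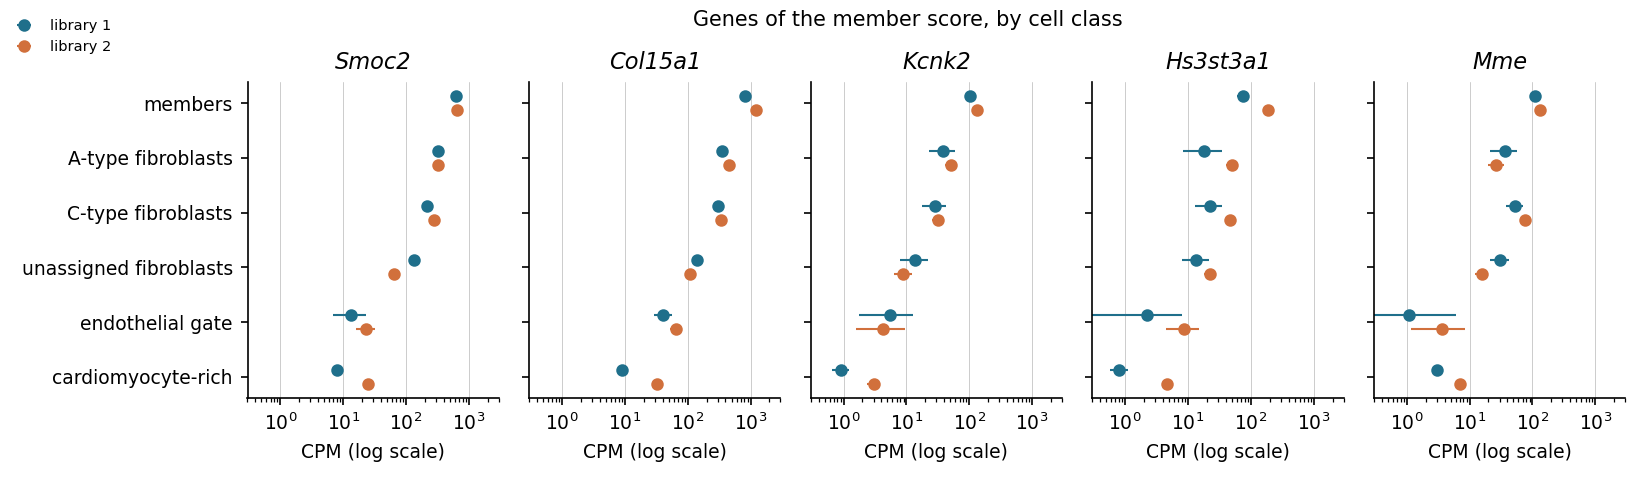
CPM (log axis, 95% Poisson bars for counting error) of the 5 genes that chose the members, in the members, the A-type, C-type and unassigned fibroblasts, a gate of endothelial cells and cardiomyocyte-rich barcodes, with library 1 in blue and library 2 in orange. Col15a1 stood at 825 and 1231 CPM in the members and at 40.8 and 65.4 CPM in the endothelial gate, and A-type and C-type fibroblasts lay between.

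Free RNA also gives counts in droplets that do not express a gene, so the same genes were read in barcodes with at least 3 UMIs of Pecam1, Cdh5, Flt1 and Ptprb and none of the 4 fibroblast genes (471 and 489 cells, median 1665 and 2353 UMIs). There Smoc2 was at 13.2 and 23.0 CPM and Col15a1 at 40.8 and 65.4 CPM. The gate leaves out droplets with any UMI of the fibroblast genes, so these levels may understate free fibroblast RNA. A UMI of Smoc2 was seen in 74.3% and 77.7% of members and in 2.55% and 6.34% of those endothelial cells. After each cell with at least 1000 UMIs was thinned to 1000, and shallower cells were left out, the shares were 47.8% and 47.0% of members against 0.966% and 3.67% of endothelial cells. Col15a1 was seen in 81.6% and 92.6% of members, and after thinning in 55.2% and 65.4%, so library 2 was higher by a like margin before and after thinning. A-type cells had Smoc2 at 317 and 319.6 CPM and C-type cells at 214 and 274 CPM, and Col15a1 stood at 351 and 462 CPM in A-type and at 299.9 and 340.01 CPM in C-type cells, so both genes were present, at lower levels, in the fibroblasts that the rule placed elsewhere.

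Nearly all members carried Smoc2 or Col15a1, and fewer carried the other 3 genes. At least 1 of the pair was detected in 99.0% and 98.6% of members, and both in 56.9% and 71.7%. Only 1 of the 5 genes was detected in 22.9% and 11.8% of members, and all 5 in 1 and 38 cells. Kcnk2 was detected in 19.2% and 26.2% of members, Mme in 20.4% and 27.8%, and Hs3st3a1 in 15.9% and 36.0%. Col15a1 was the highest of the 5 in 44.7% and 55.4% of members, and Smoc2 in 26.9% and 20.4%. The deeper library held more members with several of the genes, and the score reached 10 UMIs in 37.8% of members there and in 6.33% in library 1. Many members also carried RNA of the competing scores, with at least 1 UMI of an A-type gene in 41.2% and 57.3% and of a C-type gene in 57.3% and 66.4%, and 26.1% and 15.8% had neither.

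Cells just inside the threshold, with a score of exactly 2 UMIs and at most 1 in each other score, numbered 107 and 116. In them Col15a1 was at 406 and 344 CPM and Smoc2 at 266 and 165 CPM. Cells just outside, with a score of 1 and no UMI of the other scores, numbered 82 and 157, with Col15a1 at 221 and 164 CPM and Smoc2 at 208 and 63.7 CPM. A further 73 and 150 fibroblasts had a score of at least 2 that tied with another and were not members.

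Members made up 32.2% of fibroblasts in library 1 (Clopper-Pearson 95% interval 29.8% to 34.6%) and 39.5% in library 2 (38.0% to 41.1%), averaging 35.8% ± 5.22 (SD, n = 2). The intervals do not overlap, but with 1 library on each side no test between them was possible. Fibroblasts were 11.97% of the barcodes with at least 500 UMIs in library 1 and 39.8% in library 2, and the bead step and the depth gap can both set such shares. Cells with at least 1000 UMIs (1417 and 3687 fibroblasts) were also thinned to 1000 UMIs, with shallower cells left out. The member share was then 21.6% and 26.8%, lower in both libraries and in the same order.

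Barcodes that the fibroblast rule accepted differed in how much RNA of other cell types they held. A cell is called vascular-rich here when 31 endothelial, endocardial and pericyte genes gave at least 0.5% of its UMIs. That held for 24 members (4.90%) in library 1 and 132 (8.92%) in library 2, but for 182 (17.6%) and 1064 (47.0%) of the other fibroblasts. The unassigned cells held most of these, with 26.3% and 74.1% vascular-rich, against 6.77% and 16.01% of A-type and 8.25% and 19.97% of C-type cells. Summed over all 10 listed endocardial genes, of which 9 are in the table, members had 396 and 908 CPM and the other fibroblasts 1259 and 6112 CPM. Over all 12 endothelial genes, each with counts, the levels were 809 and 1134 CPM against 1615 and 4408 CPM, and over all 11 pericyte genes 526 and 539 CPM against 1302 and 1124 CPM. Members thus carried less vascular RNA than the remaining fibroblasts in both libraries, and for endothelial and endocardial genes the margin was wider in library 2. Macrophage RNA (345 and 672 against 355 and 766 CPM over 12 genes) and smooth muscle RNA (2338 and 619 against 2408 and 696 CPM over 10 genes) were close in both classes. Schwann and glial RNA was at 711 and 759 against 705 and 514 CPM, with the defining gene Sox10 at 0 in members of library 1. The other adventitial genes, besides those of the A-type score, were at 1208 and 1425 CPM in members against 1601 and 2067 CPM. C-type cells were close to members at 1268 and 1400 CPM, and A-type cells had 2922 and 3799 CPM. Unassigned cells had 1293 and 1782 CPM, the endothelial gate 1567 and 1832 and cardiomyocyte-rich barcodes 1177 and 1180. That sum is thus not particular to fibroblasts.

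Adding smooth muscle, Schwann or glial, immune, lymphatic and atrial genes (at least 3 UMIs and 0.1% of a cell's UMIs), 67 members (13.7%) and 220 members (14.9%) were rich in markers of some other cell type, against 307 (29.7%) and 1202 (53.1%) of the other fibroblasts. Every comparison below was therefore also made without these cells, a choice made after the data had been seen, which left 423 and 1259 members and 727 and 1060 other fibroblasts. In the remaining cells endocardial RNA was at 217 and 350 CPM in members against 275 and 434 CPM, endothelial RNA at 326 and 318 CPM against 343 and 388 CPM, and pericyte RNA at 379 and 251 CPM against 391 and 217 CPM. Endothelial, endocardial and pericyte genes had chosen the removed cells, so the closer levels here follow from that choice and are no result. The same limit holds below for values and calls of all marker genes that chose the removed cells. Fibroblast marker RNA, with the fibroblast genes of the rule in the sum, was at 17103 and 21312 CPM in members against 16145 and 19215 CPM. The part of the vascular RNA in the results for all cells was not tested.

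**Figure D2:**
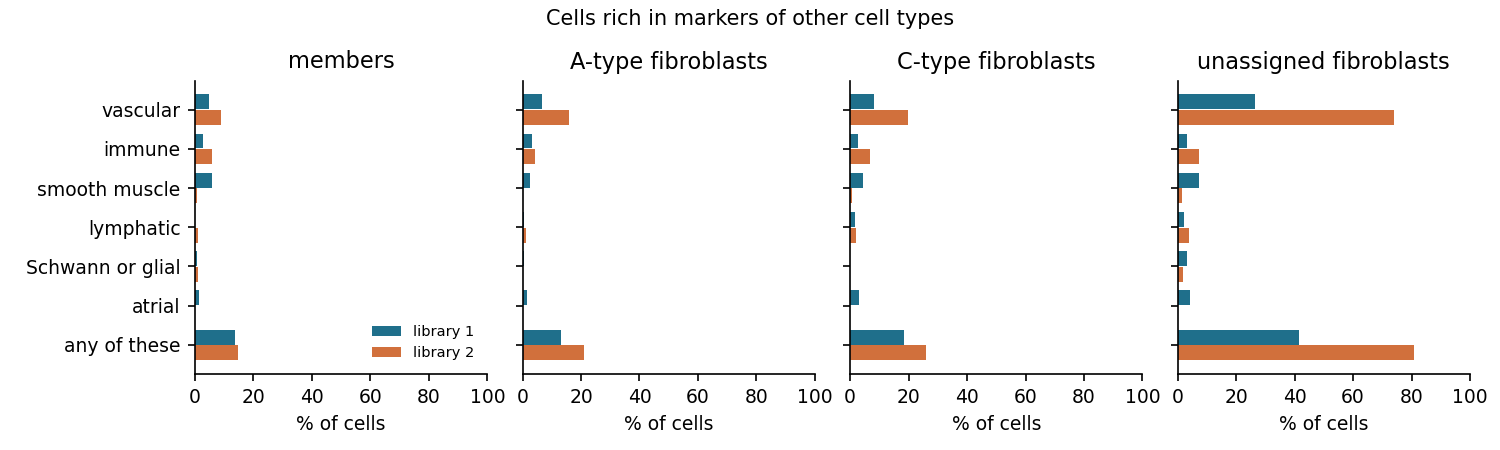
Percent of cells of each class (bars from 0) that were rich in markers of each of 6 other groups of cells, by library. Vascular-rich cells were 4.90% and 8.92% of members and 26.3% and 74.1% of unassigned fibroblasts.

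The question put to the table was how the members differ from the remaining fibroblasts of the same suspension. The higher genes named by the rule included Gfra1, the membrane-anchored co-receptor for GDNF, Trhde, an ectopeptidase that degrades thyrotropin-releasing hormone, Cmklr1, a receptor for the adipokine chemerin, Lepr, the leptin receptor, and Lvrn, an aminopeptidase. The secreted BMP-binding protein Bmper, the procollagen propeptidase Adamts14 and the kinase Hunk were also higher. Summed counts were compared with edgeR's quasi-likelihood test with library as a block, and a gene was called at a Benjamini-Hochberg adjusted p under 0.05. Of 13773 genes tested, 351 were higher in members (2.55%) and 694 lower (5.04%). Without the cells rich in other types' markers 202 of 12333 were higher (1.64%) and 334 lower (2.71%), of which 138 in each direction had also been called over all cells. Of the 14 named higher genes Hunk alone was also named against C-type cells, compared further on. There 9 of 12138 genes were called higher (0.0741%). A difference between sums of cells does not tell fewer expressing cells from less RNA per cell.

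Gfra1 was at 261 and 166 CPM in members and at 103 and 60.9 CPM in the other fibroblasts (log2 fold change 1.42, SE 0.116, edgeR adjusted p = 0.000108). Library 1 was higher than library 2 in both classes, and both member values lay above both of the others. Its UMIs came from 173 and 452 member cells, and the endothelial gate had 2.21 and 3.59 CPM. Without cells rich in other types' markers Gfra1 was at 327 and 195 against 156 and 118 CPM (log2 fold change 0.88), still called. Hunk, a protein kinase related to SNF1, was at 68.2 and 91.8 CPM against 30.4 and 40.8 (log2 fold change 1.19, SE 0.133, edgeR adjusted p = 0.000517). Its difference was as large without those cells, at 87.7 and 104 against 38.8 and 45.9 CPM (log2 fold change 1.19).

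Bmper, which binds BMPs outside the cell and tunes their signal, was at 305 and 302 CPM in members, nearly the same in both libraries, against 164 and 112 (log2 fold change 1.21, SE 0.141, edgeR adjusted p = 0.00063). Trhde was at 124 and 142 CPM against 69.5 and 46.0 (log2 fold change 1.33), and Lvrn at 176 and 154 against 89.0 and 60.2 (log2 fold change 1.21). The receptors Cmklr1, at 134 and 134 against 73.4 and 50.8 CPM, and Lepr, at 104 and 115 against 62.1 and 45.9 CPM, were higher by 1.20 and 1.12 on the log2 scale. Both member values lay above both others for each of these 5 genes, as they did for 12.6% of all genes tested (below for 13.4%). Adamts14, which trims the amino end of procollagen, was at 36.4 and 83.4 CPM against 19.1 and 32.2 (log2 fold change 1.28, SE 0.159, edgeR adjusted p = 0.000905), and its library 1 and library 2 values did not overlap between classes although library 2 was higher in both.

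The other named higher genes were Wdr66 (97.7 and 86.6 against 46.1 and 34.8 CPM), Gsta3, a glutathione transferase (log2 fold change 1.21), Crispld2, a secreted protein (93.8 and 137 against 56.2 and 54.4), the orphan receptor gene Gpr153 (77.5 and 79.7 against 35.5 and 38.0), Tmem178b (121 and 88.6 against 55.4 and 42.3) and Scml4 (27.1 and 78.0 against 24.6 and 28.7). Scml4 rested on library 2: in library 1 the log2 ratio was 0.15, member and other values overlapped, and DESeq2 did not call it, while it called the other 13. All 14 named genes were also called without the cells rich in other types' markers, with log2 fold changes from 0.47 for Tmem178b to 1.19 for Hunk, and 13 of them were smaller there than over all cells.

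**Figure D3:**
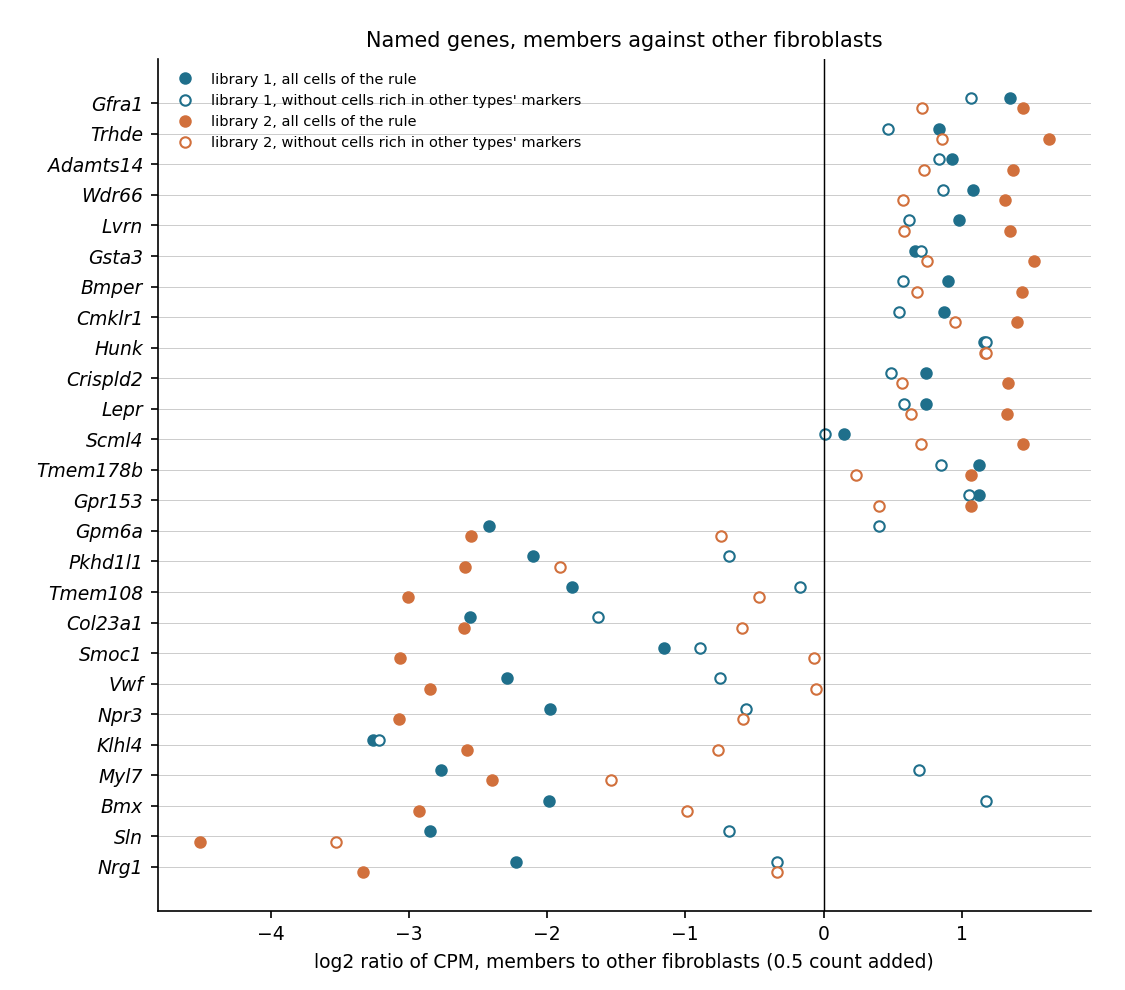
Log2 ratio of CPM in members to CPM in other fibroblasts (0.5 count added) for the 14 higher and 12 lower named genes, in library 1 and library 2, with filled points for all cells and open points without cells rich in other types' markers. The open points of the 14 higher genes lie above 0 in each library (Scml4 in library 1 at 0.010), and those of Bmx, Myl7 and Gpm6a lie on both sides of 0.

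The sequence before the start site is shown for 1 gene of the rule and for 2 of the higher genes, because these genes were high in the same cells. RefSeq (GRCm38.p6) gives a window of 250 bases before to 50 bases after the start. The 250 bases before the start are printed for Col15a1 (chr4:47207762-47208011, plus strand), Gfra1 (chr19:58455399-58455648, minus strand) and Trhde (chr10:114802303-114802552, minus strand). Capitals mark matches to the motifs searched on both strands: AP-1 TGANTCA, TEAD GGAATG, which on the other strand reads CATTCC, the E-box CAGCTG, which reads the same on both strands, and TATAAA, the core promoter box.
Col15a1: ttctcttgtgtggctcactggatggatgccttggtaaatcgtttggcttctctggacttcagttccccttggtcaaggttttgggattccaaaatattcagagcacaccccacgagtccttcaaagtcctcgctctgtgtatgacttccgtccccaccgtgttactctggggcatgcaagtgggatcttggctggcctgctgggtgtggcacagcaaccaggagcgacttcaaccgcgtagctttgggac
Gfra1: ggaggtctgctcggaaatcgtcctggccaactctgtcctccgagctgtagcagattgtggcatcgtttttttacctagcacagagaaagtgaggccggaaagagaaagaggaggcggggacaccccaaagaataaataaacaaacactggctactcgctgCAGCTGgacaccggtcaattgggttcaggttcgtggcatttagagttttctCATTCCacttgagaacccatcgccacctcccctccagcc
Trhde: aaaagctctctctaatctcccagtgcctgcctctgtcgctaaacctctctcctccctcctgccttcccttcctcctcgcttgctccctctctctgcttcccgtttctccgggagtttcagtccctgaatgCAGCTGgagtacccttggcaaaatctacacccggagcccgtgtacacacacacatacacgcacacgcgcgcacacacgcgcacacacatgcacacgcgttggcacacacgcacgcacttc
The Gfra1 window held CAGCTG at bases 161 to 166 and CATTCC at bases 212 to 217 counted from the 5′ end, the Trhde window held CAGCTG at bases 131 to 136, and the Col15a1 window held none of the 4. Of the 5 genes of the member score 4 had windows, 9 in all, with TGANTCA in 3 windows of 2 genes, 2 of them overlapping Mme windows with the same match, GGAATG in 2, CAGCTG in 2 windows of 1 gene and TATAAA in 0. Of the 14 named higher genes 12 had windows, 15 in all, and CAGCTG lay in 5 windows (33.3%) of 4 genes, 2 of them overlapping windows with the same Gpr153 match, beside 16.3% of all 32851 windows. TGANTCA lay in 0 of the 15 windows against 7.81% of all, GGAATG in 1 (6.67%) against 14.7%, and TATAAA in 1 against 13.6%. A match of 6 or 7 letters describes the sequence and is not a binding site.

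Several of the 12 named lower genes are on the fixed endocardial list: Nrg1, Npr3, Vwf and Tmem108. Nrg1, an ErbB receptor ligand made by endocardium, was at 34.1 and 77.9 CPM in members and 161 and 784 CPM in the other fibroblasts (log2 fold change -2.96, SE 0.215, edgeR adjusted p = 5.55e-05). Npr3, the natriuretic peptide clearance receptor, was at 56.6 and 123 against 225 and 1036 CPM (log2 fold change -2.65), and Vwf, the von Willebrand factor of endothelium, at 41.9 and 127 against 206 and 917 CPM (log2 fold change -2.64). These genes were higher in library 2 in both classes, and the other fibroblasts of library 2 had by far the most. Without cells rich in other types' markers Nrg1 was at 13.6 and 18.0 against 17.5 and 22.7 CPM and no longer called, while Npr3 was at 25.1 and 43.6 against 37.5 and 65.3 CPM and still called (log2 fold change -0.57). Both are markers of the kind that chose the removed cells, so these changes are no independent result.

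Sln and Myl7, genes of atrial muscle, were at 22.5 and 28.7 CPM in members of library 1 against 164 and 198 CPM in the other fibroblasts. In library 2 Sln had no UMI in members, which allows up to 0.503 CPM, and Myl7 was at 1.01 CPM. In A-type cells of library 1, 3 cells held 97.7% of the Sln UMIs and 97.0% of the Myl7 UMIs. Of the 12 named lower genes Pkhd1l1 (log2 fold change -1.83), Gpm6a (-0.68) and Npr3 kept their call without the cells rich in other types' markers, and for Gpm6a library 1 then went the other way (4.18 CPM in members against 3.23). The other 9, which besides Nrg1, Vwf, Sln and Myl7 were Bmx, Klhl4, Smoc1, Col23a1 and Tmem108, lost the call there. For endocardial and atrial markers among them the loss is no independent result, because such markers chose the removed cells.

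The same naming rule applied to the fit without those cells gave 8 genes in each direction. Col26a1, a collagen, was higher in members at 45.9 and 57.2 against 20.04 and 28.0 CPM (log2 fold change 1.09), together with Grm8, a metabotropic glutamate receptor gene (1.07), Hsd11b1, the enzyme that regenerates active glucocorticoid (1.03), G0s2, an inhibitor of lipolysis (0.87), and Kcnip3 (0.82), besides Hunk, Gfra1 and Cmklr1. Over all cells G0s2 had a log2 fold change of 0.48 and was not called. Lower genes were Cmah, the hydroxylase that makes N-glycolyl sialic acid, at 5.22 and 10.96 against 25.2 and 126 CPM (log2 fold change -3.39), Smad6, an inhibitory Smad of the BMP pathway, at 26.1 and 44.7 against 102 and 109 CPM (-1.43), and Grm7, Il1rapl1, Gpr39, Nkain2, Csmd1 and Car8 with log2 fold changes from -2.33 to -1.40.

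Lists of genes by role follow, the second set meaning the cells left without those rich in other types' markers. The counts of each list stand beside 2.55% higher and 5.04% lower among all genes tested, and 1.64% and 2.71% in the second set. Against C-type cells edgeR called 0 genes of the lists higher over all cells. At an unadjusted p under 0.05 there were 49 of 510 list entries higher, and DESeq2 called 0. Some genes given below as higher in both sets were not called against C-type cells in either set. These included Col6a6, Col8a1, Col6a2, Lama2, Lum, Hs6st2, Mmp2, Ace, Bmper, Bmp4, Smad3, Ror2, Tenm4, Cxcl14, Runx2, Heyl, Rora, Cacna1d and Abca6. SEs of the log2 fold changes over all cells that are printed for list genes ran from 0.0989 (Rora) to 0.492 (Hapln1). Collagens had the most higher calls of the 19 lists. Of 29 collagen genes tested 11 were higher in members and 3 lower, with a median log2 fold change of 0.46 against 0.01 over all genes tested. The higher ones included Col26a1 (42.6 and 49.0 against 14.1 and 15.1 CPM, log2 fold change 1.69), the collagen VI chain Col6a6 (311 and 246 against 171 and 111 CPM, 1.04), Col5a3 (0.94), Col8a1 (0.93) and the basement membrane chain Col4a1 (744 and 772 against 566 and 487 CPM, 0.56). The lower ones were the transmembrane collagens Col23a1, Col13a1 and Col25a1. Without cells rich in other types' markers 8 of 27 were higher, Col26a1, Col6a3, Col4a1, Col5a3, Col4a2, Col8a1, Col6a6 and Col6a2, and Col14a1 alone was lower (-0.34), with a median of 0.22. The count was smaller against the classes most like the members, compared further on: against A-type cells edgeR called 1 of 25 higher, Col26a1, with 9 higher at an unadjusted p under 0.05, and against C-type cells 0 of 25 higher, with 7 higher at an unadjusted p and 0 by DESeq2. In the second set 9 of 23 were higher against A-type and 4 of 23 against C-type cells, beside 3.11% and 1.13% of all genes tested there. Over all cells the shares called higher were 0.503% against A-type and 0.0741% against C-type cells. Counts at an unadjusted p are given without a share over all genes.

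Of 30 tested genes of basement membranes and their integrins 7 were higher and 6 lower. The laminin chains Lamb1 (369.8 and 587 against 259.6 and 263 CPM, log2 fold change 0.88) and Lama2 (3889 and 4304 against 2676 and 2155 CPM, 0.79) and the perlecan gene Hspg2 (0.48) were higher in both sets of cells. They were the 3 of 28 that were higher without cells rich in other types' markers, and Itga9, an integrin subunit, was the 1 lower (-0.47). The lower genes over all cells included Smoc1, Itga6 and Agrn. Agrn, which encodes agrin, had a log2 fold change of -0.90 over all cells and of 0.085 without those cells.

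Of 20 genes of elastic fibres and microfibrils 3 were higher and 1 lower over all cells, and 1 higher and 6 lower without cells rich in other types' markers. Emilin1, an elastin-associated glycoprotein, was higher in both (0.59 and 0.69). Efemp1, a fibulin, was lower in both (-0.67 and -1.17). Emilin2, Fbln1, Fbn1, Mfap5 and Eln were called lower only in the second set, and the difference between the sets was not tested. In the second set Efemp1, Emilin2, Fbn1 and Mfap5 were called lower against A-type cells. None of them was lower against C-type cells, where Mfap5 was called higher (0.62). Loxl2 and Fbln2 were also lower against A-type and higher against C-type cells. Fbln1 (-0.86) and Eln (-0.70) were called lower against C-type cells only. Of 23 proteoglycan and hyaluronan genes 6 were higher and 2 lower over all cells, and in the second set Lum, a small fibril-binding proteoglycan, was the 1 higher (0.35) and Gpc3, a glypican, the 1 lower (-0.69) of 19. Hapln1, a hyaluronan link protein gene of valves and endocardium, had the lowest value of the list over all cells (-3.34).

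The heparan sulfate genes were read because Hs3st3a1, which belongs to that pathway, helped to choose the members. Of 19 others tested 4 were higher: Hs6st2, a further sulfotransferase (27.9 and 40.4 against 16.4 and 16.6 CPM, log2 fold change 1.16), Hpse2 (1.01), Xylt1 (0.58) and Sulf1 (0.44). Hs6st2 was higher without cells rich in other types' markers too (1.21), where Hs3st1 was lower (-0.73), out of 18. Of 28 matrix proteases and inhibitors 9 were higher and 3 lower, with a median of 0.34. The gelatinase gene Mmp2 was at 264 and 275 against 174 and 137 CPM (log2 fold change 0.84) and stayed called in the second set (0.40). In that set the count was 2 higher and 4 lower, the lower ones being Adamtsl1, Adamts3, Adamts6 and Adamtsl3.

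Mme, one of the genes of the rule, is a surface peptidase, and of 14 tested peptidases and genes of vasoactive peptides 1 was higher and 6 lower. The higher one was Ace, the angiotensin-converting enzyme (46.5 and 71.2 against 28.5 and 34.3 CPM, log2 fold change 0.97, and 0.47 in the second set). Dpp4, another surface peptidase, was lower in both sets (-1.84 and -1.21), as was Npr3, and the lower Ednrb, Edn1, Npr1 and Ednra were called over all cells and not in the second set, a difference that was not tested. Ednrb, an endothelin receptor gene, had a log2 fold change of -1.94 over all cells and 0.037 without cells rich in other types' markers.

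**Figure D4:**
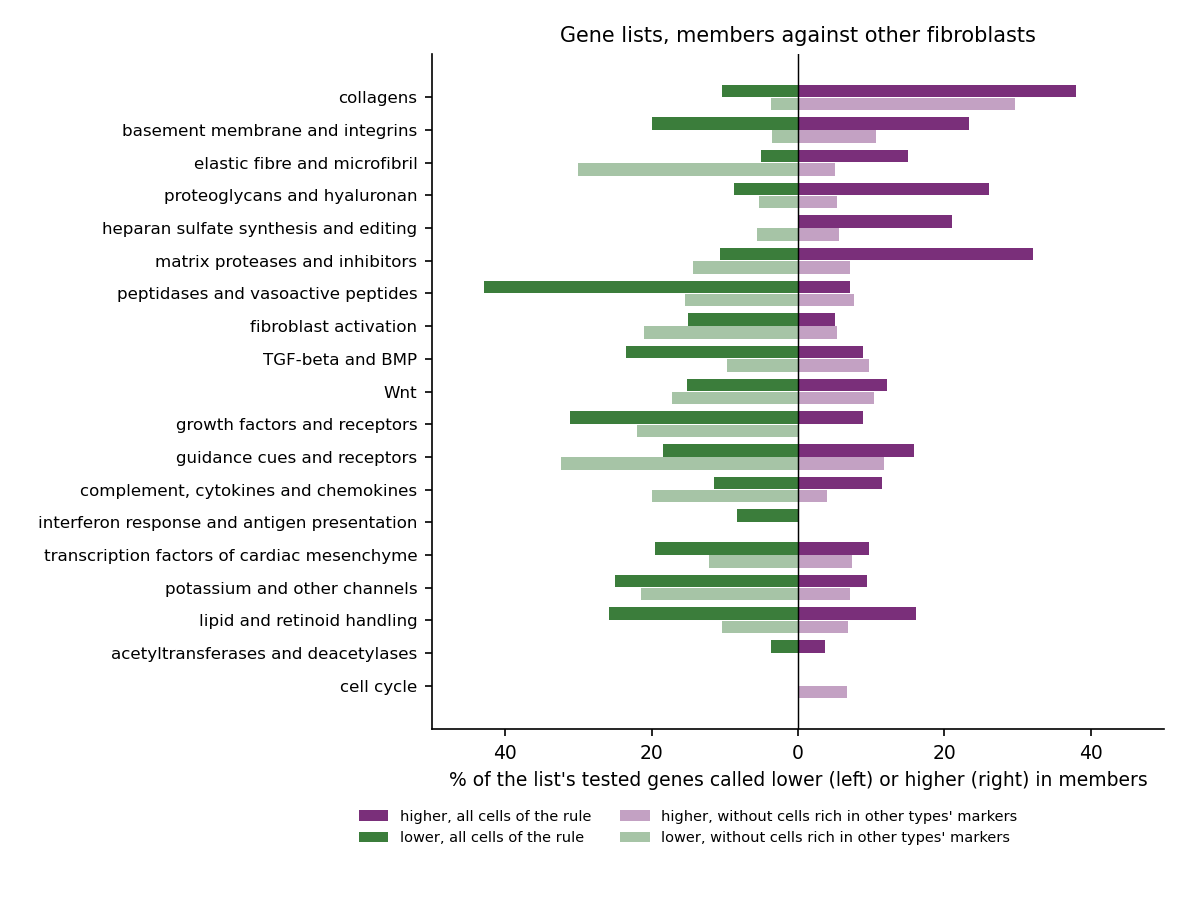
Percent of the tested genes of each of 19 lists that were called lower (left) and higher (right) in members, dark for all cells and light without cells rich in other types' markers. Collagens had the most higher calls, 11 of 29, beside 2.55% of all genes tested.

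Among signalling genes, the BMP pathway had members in both directions. Of 34 tested genes of TGF-beta and BMP signalling 3 were higher and 8 lower. Higher in both sets of cells were Bmper, the ligand gene Bmp4 (0.76 and 0.56) and the signal transducer gene Smad3 (0.68 and 0.37). Against C-type cells Bmper, Bmp4 and Smad3 were not called in either set. Against A-type cells Bmper was called higher in both sets, Bmp4 in the second set alone and Smad3 in neither. Smad6, which inhibits BMP signalling inside the cell and is itself a BMP target, was at 56.6 and 73.8 against 119.8 and 309 CPM (log2 fold change -1.69, SE 0.197, edgeR adjusted p = 0.00063) and was lower in both sets, as was Id2 (-1.32 and -0.65), another target. Eng, an endothelial co-receptor, was lower over all cells (-1.75), and Fst, the activin-binding follistatin, was called lower in the second set (-1.37), where the count was 3 higher and 3 lower of 31.

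Of 33 Wnt genes 4 were higher and 5 lower, and 3 higher and 5 lower of 29 in the second set. The receptors Ror1 (846 and 1146 against 529 and 599 CPM, log2 fold change 0.83) and Ror2 (0.83), which bind Wnt5a, were higher in both sets. Tcf4, which the list took in by its name, was also called in both (0.50), but it encodes an E-protein and not the Wnt effector, so it does not count for the pathway. Wif1, a secreted Wnt inhibitor, was lower in both (-1.94 and -2.50). Of 45 growth factor genes and their receptors 4 were higher and 14 lower. Igf1 was at 130.2 and 187 against 97.2 and 117 CPM (0.59) and Egfr at 796 and 779 against 560.2 and 417 CPM (0.73). In the second set 9 of 41 were lower, among them Fgf10 (-1.38) and the PDGF ligand Pdgfd (-1.12), and edgeR called 0 higher, with 3 higher at an unadjusted p under 0.05. DESeq2, run over all cells, called 1 higher and 3 lower.

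Guidance genes split both ways, with 6 higher and 7 lower of 38 over all cells and 4 higher and 11 lower of 34 in the second set. The teneurins Tenm4 (29.5 and 38.3 against 18.3 and 15.8 CPM, log2 fold change 1.12) and Tenm3 (804 and 1241 against 537 and 599.8 CPM, 0.85) were higher in both sets. Sema3c, a secreted semaphorin (-0.49 and -1.21), and Efnb2, an ephrin (-2.01 over all cells), were lower in both sets. Of 26 complement, cytokine and chemokine genes 3 were higher and 3 lower. The chemokine gene Cxcl14 was higher (8.53 and 6.04 against 2.34 and 1.04 CPM, log2 fold change 2.29), from 11 and 36 UMIs in 9 and 32 member cells. In the second set 1 was higher and 5 lower of 25, and C4b, C3, C7 and Ackr3 were called lower there and not over all cells, a difference that was not tested. C4b has a close copy nearby, so its count is uncertain.

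Of 41 transcription factor genes of cardiac mesenchyme 4 were higher: Runx2 (55.0 and 73.2 against 40.6 and 27.9 CPM, log2 fold change 1.07), Heyl (0.67), Rora (0.63) and Tbx20 (0.62). The first 3 were higher in both sets. Of the 8 lower genes, Wt1, a factor of the epicardium (5.43 and 12.8 against 9.37 and 32.8 CPM, -1.27 and -2.04), Tbx5 (-1.53 and -1.34) and Klf4 (-0.62 and -0.68) were lower in both, while the count was 5 lower of 41 in the second set. Kcnk2 was a gene of the rule, and of 32 further channel genes 3 were higher and 8 lower, with 2 higher and 6 lower of 28 in the second set. The L-type calcium channel gene Cacna1d (0.91 and 0.60) and the kainate receptor gene Grik2 (0.76 and 0.45) were higher in both. Kcnj8, a potassium channel gene of pericytes, had a log2 fold change of -1.34 over all cells and 0.16 in the second set.

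Of 31 genes that handle lipids and retinoids 5 were higher and 8 lower, and 2 higher and 3 lower of 29 in the second set. The transporter genes Abca8b (588 and 831 against 383 and 355 CPM, log2 fold change 0.96) and Abca6 (0.82) were higher in both. Abca8b neighbours and resembles Abca8a, a gene of the fibroblast rule, so its count is uncertain. The prostaglandin synthase gene Ptgs2 was lower over all cells (1.55 and 2.35 against 5.47 and 14.7 CPM, -2.50). Of 20 genes of fibroblast activation Fap, a surface serine protease, was the 1 higher (122 and 229 against 85.9 and 107 CPM, 0.88 and 0.78), and Comp, Ctgf and Fn1 were lower. In the second set Sfrp2, Cilp, Fn1 (-0.58) and Ctgf (-0.55) were the 4 lower genes of 19. Comp and Ctgf are known as genes of cartilage and of the response to TGF-beta, and Fn1 encodes fibronectin.

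Of 24 interferon and antigen presentation genes edgeR called 0 higher and 2 lower, Ifi44 (-1.14) and Bst2 (-0.60), with 0 higher and 5 lower at an unadjusted p under 0.05 and 0 by DESeq2. In the second set edgeR called 0 of 20, also at an unadjusted p. Of 22 cell cycle genes edgeR called 0, with 0 at an unadjusted p under 0.05 and 0 by DESeq2, and in the second set Cenpe was the 1 higher of 15 (1.95), with 5 higher at an unadjusted p. Of 27 acetyltransferase and deacetylase genes Ncoa1 was higher (0.48) and Hdac7, which endothelium uses, lower (-0.45), and edgeR called 0 of 26 in the second set, with 1 higher and 2 lower at an unadjusted p. Among all genes tested over all cells edgeR called 2.55% higher and 5.04% lower. Over all cells DESeq2 called 16 of 536 tested entries of the 19 lists higher and 29 lower. Among all 13773 genes tested it called 50 higher and 179 lower. The 16 higher were Col26a1, Col6a6, Col6a3, Col5a3, Col8a1, Lama2, Lamb1, Mmp2, Bmper, Ror1, Ror2, Egfr, Tenm3, Plxdc2, Abca8b and Abca6. The 29 lower included Col23a1, Itga6, Hapln1, Dpp4, Ednrb, Npr3, Ctgf, Comp, Fn1, Eng, Smad6, Id2, Nrg1, Efnb2 and Kcnj8. The other list genes given in these paragraphs as higher or lower over all cells were not called by DESeq2. Member and other values overlapped for Wt1, Sulf1, Hpse2, Lum, Ednrb, Ctgf, Bst2, Col25a1, Itga6, Sema3c and Pdgfd, which were called on their ratio within each library.

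The pups were injected to lose p300 and CBP, so both genes were read in the members. Ep300 was at 129 and 160.4 CPM in members and 131 and 167 CPM in the other fibroblasts (log2 fold change -0.016, edgeR adjusted p = 0.973). Crebbp was at 492 and 584 CPM against 434 and 559 CPM (0.14, adjusted p = 0.602 by edgeR). The table also has a feature named GFP, with 10 and 15 UMIs in members (7.75 and 2.52 CPM), 7.03 and 2.32 CPM in the other fibroblasts and 43.6 and 39.7 CPM in cardiomyocyte-rich barcodes. Counts at the 3′ end, with no control library, show nothing about whether exons were deleted.

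The 2 fibroblast classes most like the members were then compared with them separately, in a fit over all 4 classes of both libraries, so that both comparisons share the member sums. Against A-type cells 61 of 12138 genes were higher in members (0.503%) and 120 lower (0.989%), and without cells rich in other types' markers 312 of 10022 were higher (3.11%) and 340 lower (3.39%), sharing 58 and 103 with the first. Members had more Fat3, an atypical cadherin (56.6 and 56.7 against 12.1 and 7.96 CPM, log2 fold change 2.66, SE 0.305, edgeR adjusted p = 0.00231), Itga8, an integrin subunit (101 and 98.3 against 26.2 and 15.9 CPM, 2.42), and the G-protein regulators Rgs17 (161 and 169 against 50.4 and 40.4 CPM, 1.93) and Rgs7 (145 and 83.1 against 54.5 and 16.5 CPM, 1.94). Both member values lay above both A-type values for each of the 4, as they did for 12.7% of all genes tested (below for 14.7%), and all 4 were called with larger log2 fold changes, from 2.20 to 3.12, in the second set. Against C-type cells Itga8 was called lower in members in the second set (-0.76) and was not called over all cells.

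Csmd1 and Slc35f1 had the largest log2 fold changes against A-type cells (4.57 and 3.12) but rested on few cells. In library 1, 3 member cells held 84.9% of 172 Csmd1 UMIs and 3 held 84.4% of 64 Slc35f1 UMIs. Without cells rich in other types' markers Csmd1 was at 2.38 and called, and Slc35f1 at 0.23 and not called. Further genes of the fixed lists that were higher against A-type cells included Tenm4 (2.41), Col26a1 (1.61), Bmper (1.71), Runx2 (1.38), Igf1 (1.03), the insulin-like growth factor binding protein gene Igfbp3 (1.86) and the adrenergic receptor gene Adra1a (1.80).

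Genes lower in members than in A-type cells included the sialic acid enzyme gene Cmah, microfibril genes and secreted guidance cues. Cmah was at 7.75 and 29.7 CPM in members and 68.6 and 318 CPM in A-type cells (log2 fold change -3.34, SE 0.182, edgeR adjusted p = 2.81e-05), and Papln, a papilin gene, at 10.1 and 8.39 against 66.6 and 65.4 CPM (-2.87). Efhd1 was at 15.5 and 16.9 against 46.4 and 114 CPM (-2.42). The microfibril genes Fbn1 (532 and 741 against 1123 and 1604 CPM, -1.08) and Mfap5 (236 and 349 against 627 and 901 CPM, -1.37) and the fibulin gene Efemp1 (-2.12) were lower, as were Sema3c (86.0 and 119.6 against 315 and 620.4 CPM, -2.15), Ntn4 (-1.55) and Dpp4 (-1.88). The atrial genes Sln (-2.98), Myl7 (-2.95) and Nppa (-2.27) were also called lower, and 3 A-type cells of library 1 held 95.3% of the 674 Nppa UMIs. Without cells rich in other types' markers Sln (0.33) and Nppa (-0.16) were not called and Myl7 was too low to test.

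Against C-type cells fewer genes stood apart. Of 12138 genes 9 were higher in members (0.0741%) and 66 lower (0.544%), and in the second set 113 (1.13%) and 227 (2.27%) of 10022, sharing 8 and 42 with the first. Pla1a, a phospholipase, was at 49.6 and 80.5 against 24.5 and 28.2 CPM (log2 fold change 1.35, SE 0.207, edgeR adjusted p = 0.0248), and A4galt, a glycolipid galactosyltransferase, at 82.9 and 106 against 37.9 and 49.7 CPM (1.09, adjusted p = 0.0455 by edgeR). A-type cells had more of both than members, at 214 and 271 and 131 and 189.9 CPM. Hunk was higher than in C-type cells too (68.2 and 91.8 against 36.7 and 51.8 CPM, 0.84), a call that DESeq2 did not make (adjusted p = 0.359). Csmd1, the remaining gene by the rule (1.72), went the other way without cells rich in other types' markers (-0.84, not called).

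The genes lower than in C-type cells included Gpr39, a zinc-sensing receptor (24.0 and 31.9 against 94.2 and 161 CPM, log2 fold change -2.22, edgeR adjusted p = 0.0176), and Il1rapl1 (71.3 and 93.5 against 193 and 509 CPM, -2.07), both also lower in the second set. Slit3, a secreted guidance cue, was at 787 and 613 against 1149 and 1393 CPM (-0.88). Piezo2, a mechanically gated channel gene (-1.43), Wt1 (-1.50), Pdgfd (-0.99) and the ephrin receptor genes Ephb2 (-1.57) and Epha7 (-1.60) were lower as well. Sln, Myl7, Bmx and Col23a1 were also among the 6 lowest by the rule (-2.84, -2.38, -2.33 and -2.08), and without cells rich in other types' markers none of the 4 was called: Myl7 and Bmx were too low to test there, Sln was at -1.48 and Col23a1 at -1.33.

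For Igfbp3 and Adra1a the members lay between the classes. Igfbp3 was at 52.4 and 24.5 CPM in A-type cells, 159.7 and 99.5 CPM in members and 472 and 197 CPM in C-type cells, and was called in both comparisons (1.86 and -1.25). In each library the 3 classes kept that order. Adra1a, the alpha-1A adrenergic receptor gene, was at 20.2 and 8.53, 69.0 and 29.4 and 133 and 70.1 CPM in the same order of classes (1.80 and -1.13).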

How the data were processed

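Per the file headers, Cell Ranger 6.0.0 made the deposited table, whose values are unnormalised UMI counts for each gene in each barcode. Besides it, the notes of the submitters on processing list fastp, Trimmomatic, Seurat, edgeR and GRCm38 (mm10) without a role. The table has 27999 features and 22183 barcodes, 12736 and 9447 of them with 57982200 and 50199793 UMIs in library 1 and library 2, assigned from the barcode suffix and the sample titles. Whether reads were counted by strand, or in introns, is not stated in the labels or headers, so overlapping and near-identical genes are uncertain.

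Everything else was computed here with R 4.3.3 (edgeR 4.0.16, limma 3.58.1, DESeq2 1.42.0) and Python 3.11.15 (numpy 2.4.6, scipy 1.17.1, pandas 2.3.3, scikit-learn 1.9.0, matplotlib 3.10.9). Counts were summed per class and library. The main test was edgeR's quasi-likelihood test on 4 sums (members, other fibroblasts) with TMM scaling, filterByExpr, library as a block and Benjamini-Hochberg adjustment over all genes tested, with 1 residual degree of freedom before pooling over genes; the A-type and C-type tests used 8 sums. The block follows from the design, since the classes of a library share 1 suspension. The 23 genes of the rule stayed in the totals and were not tested; 21 of them pass the count filter. Of 27999 features 4021 had no count. No doublets were removed in the main analysis. The doublet score marked 20.4% and 12.4% of barcodes and put 66.1% and 81.0% of simulated doublets over its threshold. On simulated counts over 13924 genes the main test recovered 28.4% of genes changed 1.5-fold, 86.6% of those changed 2-fold and 100% of those changed 4-fold, with 4.67% of calls false. The simulation gave every gene the same dispersion and both classes of a library the same profile, and changed only genes with counts in every sum. Its settings are simpler than the real sums, so these rates are not error rates of the real calls.

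The members and the 19 gene lists were chosen with earlier results of these data known. Named genes were, among called genes with the same direction in each library and a mean of at least 50 CPM in the higher class, the 14 with the largest and the 12 with the smallest log2 fold change (6 in each direction for A-type and C-type), leaving out genes with placeholder symbols, up to 4 called genes in each direction of each list, and Ep300, Crebbp, GFP and the rule genes. A few further called list genes were named after their values were seen. Some list genes are counted but not reported by name here. For the fit without cells rich in other types' markers, added after seeing the data, the 8 largest in each direction were named; its prior degrees of freedom were infinite, so its spread is wholly the pooled estimate and its p-values are not printed. Alternatives were another tool, scaling, count filter, score minimum, depth, cardiomyocyte limit, doublet removal, reference class, no replicate block and each library alone. Promoter sequences are RefSeq's (GRCm38.p6).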

Additional observations from a re-analysis of the deposited data

How the results depend on the processing

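Over all cells 351 genes were higher and 694 lower in members. The counts were 129 and 297 against A-type and C-type cells only, 50 and 179 with DESeq2, 122 and 218 against the mean of the 3 other classes, and 202 and 334 without cells rich in other types' markers, and with no filter on low counts 1076 were lower. Against A-type cells (61 and 120) the counts were 312 and 340 without cells rich in other types' markers, and 186 were lower without doublet-marked cells. Against C-type cells (9 and 66) they were 113 and 227 and, without doublet-marked cells, 25 and 195, while DESeq2 called 4 higher and the fit with no TMM scaling 5. The cause of these changes was not tested.

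With no replicate block edgeR called 0 higher and 0 lower in all 3 comparisons, with 155 and 339 (other fibroblasts), 192 and 217 (A-type) and 85 and 130 (C-type) at an unadjusted p under 0.05, and without cells rich in other types' markers again 0 and 0, with 62 and 146. The block pairs classes of 1 suspension, so all 149 calls on named genes rest on differences within libraries.

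The mean member share, 35.8%, was 24.2% in cells thinned to 1000 UMIs and 45.5% without cells rich in other types' markers, and 32.2% to 39.5% with 1 library left out. For 57 of 149 gene values library 1 alone moved beyond the spread, and for 11 library 2 alone.

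Without cells rich in other types' markers 73 of 138 log2 fold changes kept their direction and call, 52 lost the call and 13 reversed: Serping1 -0.0063, Fabp5 0.14, Col25a1 0.24, Agrn 0.085, Kcnj8 0.16, Adamts17 0.27, Kitl 0.11, Bst2 0.0498, Ednrb 0.037, Mfap4 -0.11 and Adamts1 0.17, and Sln 0.33 against A-type and Csmd1 -0.84 against C-type cells. For markers of the removed cell types, such as Kcnj8, these changes are no independent result. Against A-type and C-type cells only, Kcnj8 (0.13), Adamts17 (0.026), Ano1 (0.30) and Kitl (0.046) reversed. Without doublet-marked cells Nppa (0.34), Sln (0.50) and Myl7 (0.58) reversed against A-type cells. DESeq2 kept 75 of 149 calls, thinned cells 100 of 114 and no TMM scaling 141 of 149. Leaving out the low-count filter kept all 127.

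Library 1 limits depth: members there had 1289949 UMIs, and 10 UMIs correspond to 7.75 CPM.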
